A study of Mus musculus with 2 samples.

Results

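Serpins, a family of protease inhibitors and related proteins that share 1 fold, were described in organoids of mouse fallopian tube (oviduct) epithelium. Members were all gene symbols that begin with Serpin, followed by a letter and a digit, with pseudogene names left out. There were 63 members among the 25668 gene symbols listed for each library. The study holds 2 RNA-seq libraries, 1 in each group, and asks what loss of Trp53, the gene of the tumour suppressor p53, changes in this epithelium. The Trp53 KO library (casP) came from fallopian tube epithelial organoids in which Trp53 had been knocked out. The control library (cas-nFTE, genotype WT) came from normal organoids of a mouse on the B6J.129(B6N) background with the allele Gt(ROSA)26Sortm1(CAG-cas9*,-EGFP)Fezh, a transgene for Cas9 and EGFP at the Rosa26 locus. Both libraries carry the treatment label conditioned medium. The guide used, the number of clones and the age of the animals are not stated in the labels, so each library may stand for 1 culture. Trp53 itself stood at 2.42 TPM in the Trp53 KO library, against 83.2 TPM in the control library.

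TPM, the unit of the deposited values, is a level scaled by gene length and to the same total in each library, so levels of different genes can be compared. Each group has 1 library, so the genotypes could not be tested against each other, and every difference compares these 2 libraries without a replicate check. Read numbers were recovered or estimated from the steps in the TPM values and came to about 27700000 in the Trp53 KO library and 100100000 in the control library. Ratios of TPM are given with 95% Clopper-Pearson intervals (exact, from the reads of both libraries), which cover counting error only. In bulk RNA, fewer cells of a type and less RNA per cell cannot be told apart.

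Most serpins are suicide inhibitors: a protease cuts an exposed reactive centre loop, and the serpin then springs into a stable form that locks the protease in place. Family members are grouped into clades by letter. Clade B members lack a classical secretion signal and act mainly inside cells, where they are known in epithelia and leukocytes as a shield against misplaced proteases. Most other clades are secreted and control coagulation, fibrinolysis, complement and tissue proteases. A few members, such as the collagen chaperone Serpinh1, inhibit no protease.

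Of the 63 members, 38 were above 0 TPM in at least 1 library and 25 were listed at 0 in both. The number above 0 was 29 in the Trp53 KO library and 38 in the control library, which was the more deeply sequenced. At least 1 TPM was reached by 13 members in the Trp53 KO library and 16 in the control library, 11 of them in both and 18 in either. The remaining 20 detected members stayed below 1 TPM in both libraries. The members nearest below that limit were Serpina10 (listed at 0 and 0.898 TPM in the Trp53 KO and control libraries), Serpini1 (0.123 and 0.797 TPM) and Serpinb2 (0.698 and 0.0215 TPM). The members nearest above it were Serpine2 (0.0489 TPM in the Trp53 KO library and 1.25 TPM in the control library) and Serpinc1 (1.37 and 1.85 TPM).

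**Figure D1:**
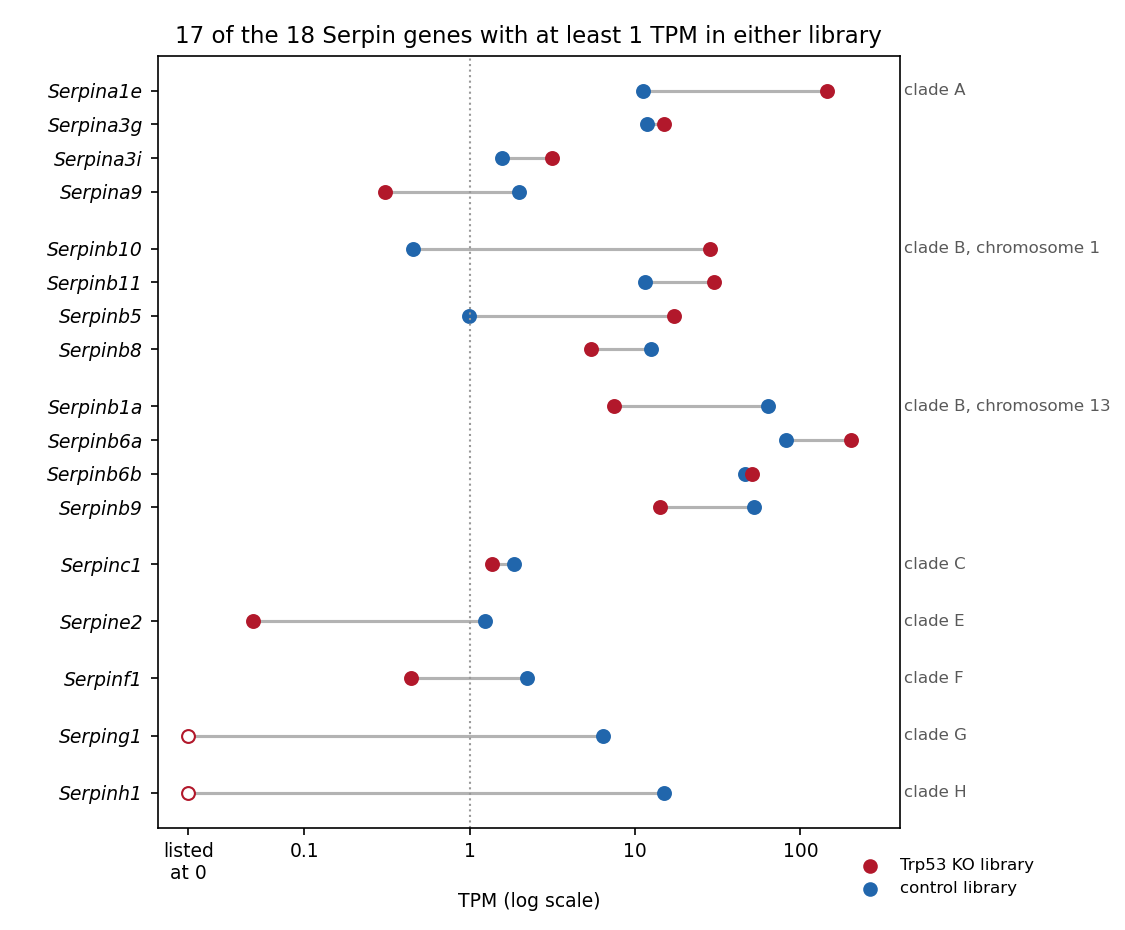
TPM (log axis) of 17 of the 18 Serpin genes with at least 1 TPM in either library, grouped by clade, with the Trp53 KO library in red and the control library in blue. Open points mark genes listed at 0 and the dotted line marks 1 TPM. Serping1 and Serpinh1 are listed at 0 in the Trp53 KO library, and Serpina1e, Serpinb5 and Serpinb10 lie furthest to the right of their control value.

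The summed level of all 63 members was 527.2 TPM in the Trp53 KO library and 328.0 TPM in the control library. Clade B, the intracellular clade, made up 67.9% of that sum in the Trp53 KO library and 82.5% in the control library. Clade A, which holds the antitrypsin and antichymotrypsin relatives, made up 31.0% and 8.71%. Serpinb6a was the most abundant member in both libraries, with 38.5% of the serpin sum in the Trp53 KO library and 24.9% in the control library. The next in order were Serpina1e and Serpinb6b in the Trp53 KO library, and Serpinb1a and Serpinb9 in the control library. Without Serpina1e and Serpinb6a the remaining members summed to 180.1 TPM in the Trp53 KO library and 235.1 TPM in the control library, so these 2 genes carry the higher total.

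**Figure D2:**
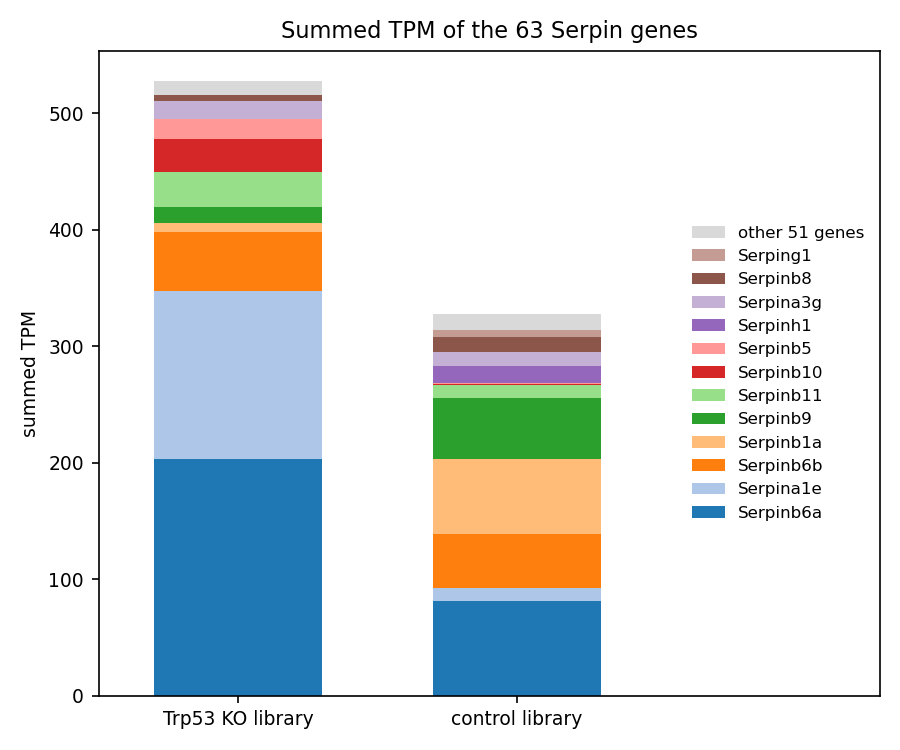
Summed TPM of the 63 Serpin genes in the Trp53 KO library (left) and the control library (right), with 12 genes drawn apart and the other 51 pooled in grey. The bars reach 527.2 and 328.0 TPM, and Serpinb6a and Serpina1e fill most of the left bar.

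Differences are log2(TPM + 1) in the Trp53 KO library minus the same in the control library. Genes whose TPM averaged 1 or more were compared, and a gene counts as higher or lower when it differs by 2-fold or more on this scale. Of the 63 members 17 passed this filter, of which 6 (35.3%) were at least 2-fold higher and 7 (41.2%) were lower by as much. Among all 11228 genes that passed it, 8.35% were higher and 15.3% lower. Some members passed only through the library in which they were high and so had to differ. Among the 11 members with at least 1 TPM in both libraries, 4 were higher and 3 lower, against 7.21% higher and 10.5% lower of 10131 such genes. The median difference of the 17 members was 0.13, beside −0.17 over all genes that passed, while the median size of the difference was 1.30 for the members and 0.49 for all genes. After quantile normalization, which moved the median of all genes to 0.03, the split was 7 members higher and 4 lower, and 1292 genes higher and 1321 lower in place of 937 and 1715. At 4-fold, 3 members were higher (Serpinb10, Serpina1e and Serpinb5) and 3 lower (Serpinh1, Serpinb1a and Serping1), against 2.38% and 5.89% of all genes. Of these, only Serpina1e and Serpinb1a had at least 1 TPM in both libraries. Serpinb10 and Serpinb5 passed the filter through the Trp53 KO library alone, and Serpinh1 and Serping1 through the control library alone. The median size of the difference came from the same 17 members, so it carries the same limit.

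**Figure D3:**
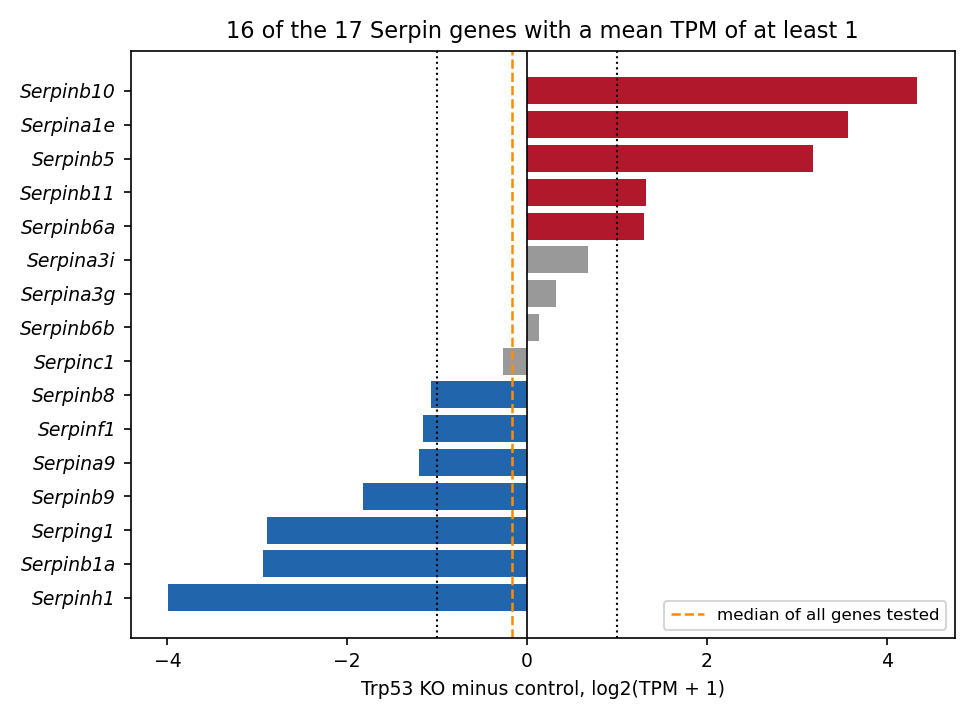
Difference in log2(TPM + 1), Trp53 KO minus control, for 16 of the 17 Serpin genes whose TPM averaged 1 or more. Red bars are higher and blue bars lower by 2-fold or more (dotted lines), grey bars are neither, and the dashed line is the median of all genes, −0.17.

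The clade B genes of chromosome 1 form a cluster of 12 members, 4 of which reached 1 TPM. Of these 4, Serpinb5, Serpinb10 and Serpinb11 were at least 2-fold higher in the Trp53 KO library, while Serpinb8 was lower. Over all genes that passed the filter on low values, 8.35% were higher and 15.3% lower. Serpinb5 and Serpinb10 passed it through the Trp53 KO library alone, while Serpinb11 and Serpinb8 had at least 1 TPM in both libraries. All 4 carry the letters TGANTCA, a looser form of the AP-1 motif with any base in the middle, in the RefSeq promoter window from 250 bases before to 50 bases after the start of the gene. These windows are shown because they hold a feature that the expressed genes of the cluster share, from 5′ to 3′ on the strand of the gene in build GRCm38.p6, an earlier build than the GRCm39 of the deposited values, with TGANTCA in capitals.
Serpinb5 (chr1:106860925-106861224, plus strand): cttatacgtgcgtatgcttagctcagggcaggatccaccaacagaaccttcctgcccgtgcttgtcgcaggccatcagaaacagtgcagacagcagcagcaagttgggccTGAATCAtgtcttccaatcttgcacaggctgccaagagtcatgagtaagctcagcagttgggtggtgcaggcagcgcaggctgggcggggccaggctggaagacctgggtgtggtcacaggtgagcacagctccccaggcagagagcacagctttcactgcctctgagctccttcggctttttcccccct
Serpinb10 (chr1:107528753-107529052, plus strand): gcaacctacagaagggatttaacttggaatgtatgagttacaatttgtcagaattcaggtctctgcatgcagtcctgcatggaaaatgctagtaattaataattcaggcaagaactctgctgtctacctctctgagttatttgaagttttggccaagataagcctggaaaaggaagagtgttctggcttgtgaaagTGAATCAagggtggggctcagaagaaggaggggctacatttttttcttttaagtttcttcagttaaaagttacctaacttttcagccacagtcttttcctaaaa
Serpinb11 (chr1:107362064-107362363, plus strand): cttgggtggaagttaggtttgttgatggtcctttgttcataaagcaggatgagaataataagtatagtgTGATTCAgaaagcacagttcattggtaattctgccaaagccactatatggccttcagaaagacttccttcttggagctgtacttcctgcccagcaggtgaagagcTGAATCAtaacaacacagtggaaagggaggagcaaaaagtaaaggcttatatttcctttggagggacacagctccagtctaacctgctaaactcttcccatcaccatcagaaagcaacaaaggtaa
Serpinb8 (chr1:107589756-107590055, plus strand): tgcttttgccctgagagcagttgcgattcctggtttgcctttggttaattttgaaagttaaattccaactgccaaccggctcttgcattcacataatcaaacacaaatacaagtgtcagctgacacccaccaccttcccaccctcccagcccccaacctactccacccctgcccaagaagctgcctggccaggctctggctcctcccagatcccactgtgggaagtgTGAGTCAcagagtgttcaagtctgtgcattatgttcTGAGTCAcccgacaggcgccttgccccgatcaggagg

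The marked stretch begins at position −140 from the start in Serpinb5 and at −54 in Serpinb10. Serpinb11 and Serpinb8 hold it at 2 places each. It was 1 of 7 motifs searched (the TATA box TATAAA on the sense strand only, and on both strands the CCAAT box, the Sp1 core GGGCGG, the looser AP-1 form, the heat shock core GAANNTTC, the E-box CACGTG and the p53 decamer element), and it was singled out after the matches were seen. TGANTCA occurs in 7.81% of the 32841 promoter windows of the table, and the other motifs in 7.15% (CACGTG) to 37.4% (CCAAT). It was found in 8 of the 13 windows available for 11 genes of the chromosome 1 cluster, also for Serpinb2, Serpinb7 and Serpinb12, which stayed below 1 TPM. The 2 windows of Serpinb2 overlap and share the same stretch, and by gene the count was 7 of 11. TGANTCA was found in 0 of 19 windows for 15 genes of the chromosome 13 cluster. In other clades 4 of 31 windows held it, those of Serpina1a, Serpina1b, Serpina1c and Serpina1d. A match is a run of letters and not a measured binding site, and the cluster genes arose by duplication, so their windows are not independent. The middle base differs between the genes shown. The higher genes Serpinb5, Serpinb10 and Serpinb11 hold TGAATCA or TGATTCA, while both stretches of the lower Serpinb8 read TGAGTCA. The AP-1 consensus, TGAGTCA or TGACTCA, was searched after these letters were seen. The consensus occurs in 5.20% of all windows, and among the 4 genes shown in Serpinb8 alone. Among the other members it occurs in Serpinb7, Serpina1a, Serpina1b, Serpina1c and Serpina1d.

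Serpinb5, or maspin, an epithelial serpin without protease inhibition that p53 is known to activate in human cells, stood at 17.1 TPM in the Trp53 KO library and 0.990 TPM in the control library. The ratio was 17.3 (14.6 to 20.7). Serpinb10, known as bomapin and described in human myeloid cells, stood at 28.6 TPM in the Trp53 KO library and 0.457 TPM in the control library. Its ratio of 62.5 (44.8 to 92.1) was the highest among the 18 members that reached 1 TPM. Serpinb11, an inhibitor of trypsin-like proteases in the mouse, stood at 30.1 and 11.5 TPM, for a ratio of 2.63 (2.43 to 2.85). The cluster as a whole summed to 82.0 TPM in the Trp53 KO library, against 26.1 TPM in the control library.

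Serpinb8, an inhibitor of the proprotein convertase furin, stood at 5.44 TPM in the Trp53 KO library and 12.5 TPM in the control library, from 441 and 3422 reads. Its ratio was 0.434 (0.392 to 0.479), and its difference of −1.07 shrank to −0.81 after quantile normalization and −0.75 with a pseudocount of 5, each of which ended the call. Serpinb2, the plasminogen activator inhibitor of clade B, had an estimated 25 reads in the Trp53 KO library and 3 in the control library, a ratio of 32.5 with the wide interval of 8.56 to 145.1. Serpinb7 and Serpinb12 stayed below 0.5 TPM in both libraries. The 4 Serpinb3 genes, mouse relatives of the human squamous cell carcinoma antigens, were listed at 0 in the Trp53 KO library, and in the control library only Serpinb3c had reads, an estimated 2. Serpinb13 was listed at 0 in both libraries.

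No gene among the 3 that flank the chromosome 1 cluster on either side was higher by 2-fold or more. Vps4b, the nearest expressed neighbour on the Serpinb5 side, stood at 24.6 and 25.8 TPM in the Trp53 KO and control libraries, and Kdsr, the next, at 4.99 and 10.5 TPM. On the Serpinb8 side Cdh7 and Cdh19 were listed at 0 in both libraries, and Dsel was lower, at 0.658 and 2.98 TPM. Over chromosome 1 as a whole, 34 of 628 measured genes were higher by 2-fold or more and 115 lower, and the median difference was −0.29.

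The clade B genes of chromosome 13 form the second cluster, with 16 members, and held the most abundant serpin of both libraries, Serpinb6a. Of its 4 members with at least 1 TPM, Serpinb6a was at least 2-fold higher. Serpinb1a and Serpinb9 were lower by 2-fold or more, and Serpinb6b was neither. All 4 had at least 1 TPM in both libraries, and over all such genes 7.21% were higher and 10.5% lower. Serpinb6a, whose human relative inhibits cathepsin G, stood at 203.0 TPM in the Trp53 KO library and 81.6 TPM in the control library, a ratio of 2.49 (2.40 to 2.57). Serpinb6b, its close relative, stood at 50.9 and 46.3 TPM, a ratio of 1.10 (1.05 to 1.16). The counting intervals of these 2 paralogs do not overlap.

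Serpinb1a, the mouse counterpart of the human inhibitor of neutrophil elastase, cathepsin G and proteinase 3, stood at 7.43 TPM in the Trp53 KO library and 63.8 TPM in the control library. The ratio was 0.116 (0.102 to 0.132), and its rank among the serpins was 9 in the Trp53 KO library and 2 in the control library. Serpinb9, the inhibitor of granzyme B, stood at 14.1 TPM in the Trp53 KO library and 52.5 TPM in the control library, a ratio of 0.269 (0.251 to 0.288). The sum over the cluster was 275.9 TPM in the Trp53 KO library and 244.6 TPM in the control library, a ratio of 1.13, while its members differed in both directions. The other 12 members were below 1 TPM in both libraries, and 6 of the 8 Serpinb9 genes, Serpinb9c to Serpinb9h, were listed at 0 in both.

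**Figure D4:**
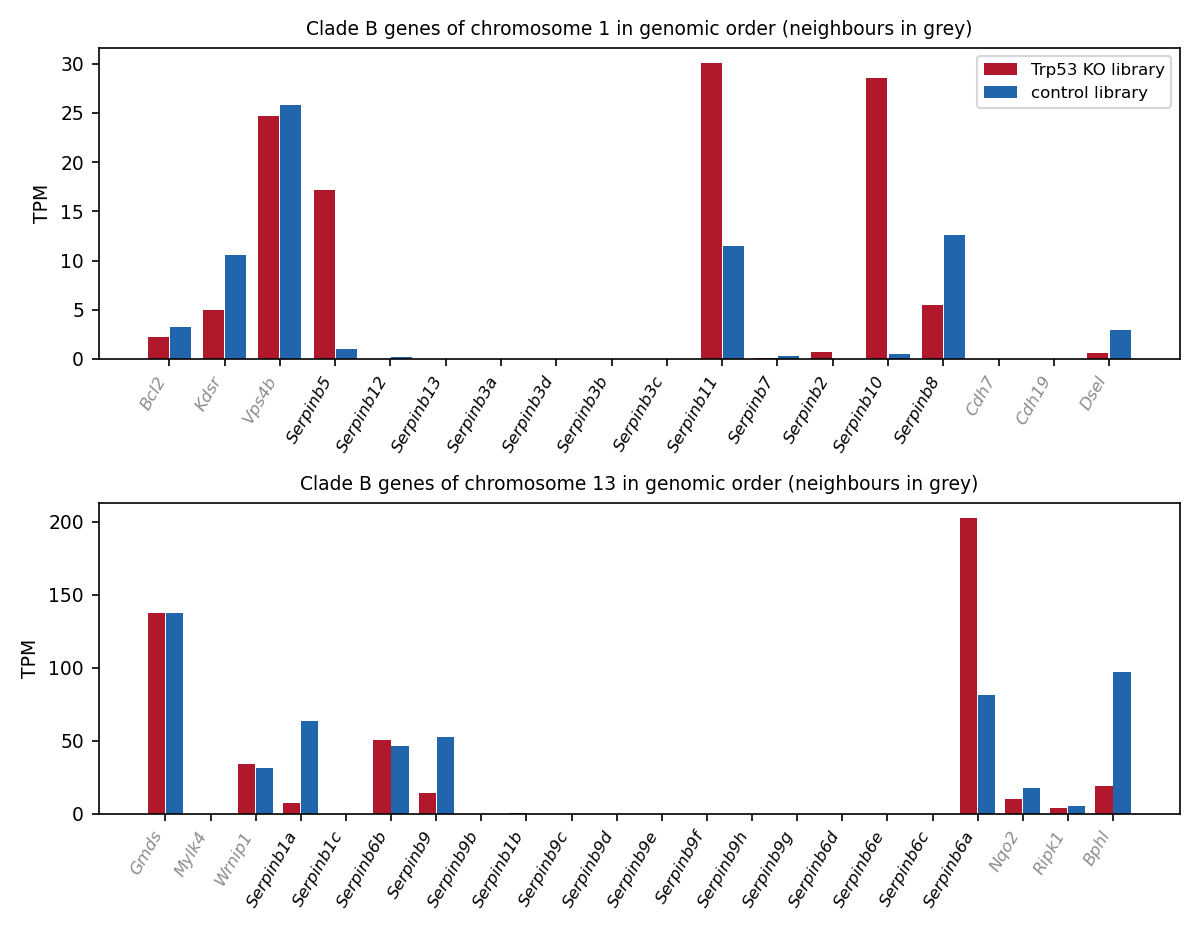
TPM of the clade B genes of chromosome 1 (upper panel) and chromosome 13 (lower panel) in genomic order, with 3 neighbouring genes on each side in grey letters, in the Trp53 KO library (red) and the control library (blue). Serpinb5, Serpinb10 and Serpinb11 stand out in the upper panel with higher bars in the Trp53 KO library, and Serpinb1a and Serpinb9 in the lower panel with lower ones.

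Clade A, on chromosome 12 but for 1 gene on chromosome X, had 24 members, of which 4 reached 1 TPM. Serpina1e, a member of the mouse antitrypsin family, stood at 144.2 TPM in the Trp53 KO library and 11.2 TPM in the control library, a ratio of 12.9 (12.04 to 13.8). Its rank among the serpins was 2 in the Trp53 KO library and 9 in the control library. The antitrypsin genes are near copies of each other, and 35.6% of the 50-base stretches of the Serpina1e transcript also occur in transcripts of other genes, 27.6% in Serpina1d alone, so its value is uncertain. The whole family, Serpina1a to Serpina1f, summed to 144.5 TPM in the Trp53 KO library and 11.7 TPM in the control library, so the difference in the family sum does not rest on how reads were divided within it. None of the other 5 antitrypsin genes exceeded 0.5 TPM in either library. Markers of hepatocytes, the main source of antitrypsin in the body, were near 0. All 8 listed ones were at 0 in the Trp53 KO library. In the control library they summed to 1.14 TPM, of which Hnf4a held 0.986 TPM. The list includes Serpina1a, which is itself a member of the antitrypsin family and was listed at 0 in both libraries.

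The antichymotrypsin relatives of clade A showed smaller differences. Serpina3g, an inhibitor of cysteine cathepsins in mouse leukocytes, stood at 15.0 TPM in the Trp53 KO library and 11.8 TPM in the control library, a ratio of 1.27 (1.14 to 1.41). Serpina3i stood at 3.13 and 1.58 TPM, a ratio of 1.98 (1.57 to 2.49), and passed 2-fold only after quantile normalization, with a difference of 1.09. Reads of both genes can be shared, since 16.0% of the stretches of Serpina3g and 15.4% of those of Serpina3i occur in other transcripts. The 10 Serpina3 genes together summed to 18.3 TPM in the Trp53 KO library and 13.8 TPM in the control library. Serpina9, known from human germinal centre B cells, stood at 0.308 and 2.003 TPM, a ratio of 0.154 (0.0895 to 0.237). Serpina10, which inhibits activated coagulation factor X together with protein Z, was listed at 0 in the Trp53 KO library. It had 187 reads in the control library, and was at least 18.5-fold lower when the 0 is read as 3 reads.

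Among the secreted and chaperone members of the other clades, Serpinh1, Serping1 and Serpinf1 were at least 2-fold lower in the Trp53 KO library. Each of them passed the filter on low values through the control library alone and so had to differ. Over all genes that passed it, 15.3% were lower. Serpinh1, the chaperone of the endoplasmic reticulum that folds procollagen, was listed at 0 in the Trp53 KO library and stood at 14.9 TPM in the control library, from an estimated 2020 reads. With 3 reads as a floor it was at least 200.1-fold lower. Other folding factors of that compartment were plentiful in both libraries: 6 of them (Hspa5, P4hb, Pdia3, Canx, Calr and Ppib) ranged between 213.8 and 985 TPM in the Trp53 KO library and between 280.2 and 1309 TPM in the control library. All 12 genes chosen because every cell uses them were above 1 TPM in both libraries. A listed 0 beside at least 5 TPM in the control library was found for 60 genes (0.705% of 8508). Serping1, the C1 inhibitor of complement and kallikrein, was likewise listed at 0 in the Trp53 KO library and stood at 6.44 TPM in the control library, from an estimated 678 reads, and was at least 67.1-fold lower. Serpinf1, or PEDF, a secreted serpin without protease inhibition that limits vessel growth, stood at 0.445 and 2.22 TPM, a ratio of 0.1999 (0.104 to 0.332).

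The promoter window of Serpinh1 is shown with its CpG pairs in capitals, since the gene was listed at 0 in the Trp53 KO library and well covered in the control library. It holds 16 CpG pairs, and the median over all windows is 7, with 67.0% of windows holding fewer than Serpinh1. Among other members, 1 of the 2 windows of Serpinb6a, which was higher, holds 25 and the other 5. The window of Serpine2, which stood lower, holds 41. A link of CpG number to level was not tested.
Serpinh1 (chr7:99353190-99353489, minus strand): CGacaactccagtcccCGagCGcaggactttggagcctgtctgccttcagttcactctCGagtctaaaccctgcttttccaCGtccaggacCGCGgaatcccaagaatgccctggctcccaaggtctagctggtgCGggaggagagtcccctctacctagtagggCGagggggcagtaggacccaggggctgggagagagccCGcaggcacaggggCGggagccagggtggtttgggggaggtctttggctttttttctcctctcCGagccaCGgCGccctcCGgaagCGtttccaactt

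In clade E, Serpine2, or protease nexin, which inhibits thrombin and urokinase, had an estimated 2 reads in the Trp53 KO library and 164 in the control library, for levels of 0.0489 and 1.25 TPM and a ratio of 0.0391 (0.00493 to 0.151). Its mean TPM was under 1, so it is not among the 17 members counted.

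Other members stood low in both libraries. Serpinc1, or antithrombin, had 1.37 TPM in the Trp53 KO library and 1.85 TPM in the control library, a ratio of 0.742 (0.602 to 0.903), and its difference changed sign, to 0.21, after quantile normalization. Serpini1, or neuroserpin, an inhibitor of tissue plasminogen activator, had 0.123 and 0.797 TPM, a ratio of 0.155 (0.0703 to 0.303). Serpinf2 and Serpind1, inhibitors of plasmin and thrombin that the liver makes, did not exceed 0.5 TPM in either library, and Serpine3 and Serpini2 were listed at 0 in both.

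The proteases and partners of these serpins were read from lists drawn from textbook knowledge, with the percentages of all genes given above (8.35% higher, 15.3% lower) as the background. In plasminogen activation 4 of 8 genes were at least 2-fold higher and only 1 gene was lower by as much. The median difference of the 8 was 1.002. Lrp1 passed the filter on low values through the Trp53 KO library alone, and Hpn through the control library alone. Among the 6 genes with at least 1 TPM in both libraries, 3 were higher and 0 lower. The shares over all such genes were 7.21% and 10.5%. Plau, the urokinase that Serpinb2 inhibits, stood at 44.0 TPM in the Trp53 KO library and 18.4 TPM in the control library. Anxa2 and S100a10, which together bind plasminogen and its activators at the cell surface, stood at 1986 and 1510 TPM in the Trp53 KO library and at 820 and 489.9 TPM in the control library. Lrp1, the receptor that clears serpin and protease complexes, stood at 3.56 and 0.163 TPM. The 1 lower gene was Hpn, the membrane protease hepsin, at 0.201 TPM in the Trp53 KO library and 26.0 TPM in the control library. Plaur, the urokinase receptor, was not past 2-fold, at 46.7 and 80.0 TPM. Plg, which encodes plasminogen, and Vtn, which encodes vitronectin, were listed at 0 in both libraries.

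Of 6 listed complement proteases that Serping1 controls, 3 passed the filter on low values, each through the control library alone, and so had to differ. They stood lower in the Trp53 KO library: C1ra at 0.228 TPM in the Trp53 KO library and 14.3 TPM in the control library, C1s1 at 0.0378 and 8.16 TPM, and C1rl at 0.376 and 11.6 TPM. C1s2 stood at 0.255 and 1.47 TPM, and Masp1 and Masp2 were at or near 0 in both libraries. Among 7 coagulation and contact genes there was 1 higher and 1 lower, and the median was 0.05. With at least 1 TPM in both libraries there were 6, of which 1 was higher and 0 lower. The higher one was Procr, the protein C receptor, at 31.2 TPM in the Trp53 KO library and 1.44 TPM in the control library, and the lower one Kng1, a kininogen, at 0.0174 and 20.3 TPM. F3, tissue factor, stood at 106 and 108 TPM.

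The clients and partners of Serpinh1 gave no common direction. Among 10 measured collagen and collagen-folding genes there were 2 higher and 1 lower, and the median was −0.14. With at least 1 TPM in both libraries there were 8, of which 1 was higher and 0 lower. Col17a1, a collagen of basal keratinocytes, stood at 29.0 TPM in the Trp53 KO library and 0.0571 TPM in the control library, and P4ha2, a prolyl hydroxylase subunit, at 18.0 and 5.36 TPM. P3h1, another prolyl hydroxylase, was the lower one, at 0.144 and 5.44 TPM. P4hb, not past 2-fold, had 645 and 974 TPM. The fibrillar collagen genes Col1a2, Col5a1 and Col5a2 were listed at 0 in both libraries. Col1a1 and Col3a1 were listed at 0 in the Trp53 KO library and stood at 0.0085 and 0.00302 TPM in the control library.

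Among 11 measured serine proteases of epithelia there were 4 higher and 3 lower ones, and the median was 0.42. Tmprss11b and Prss27 passed the filter on low values through the Trp53 KO library alone, and Prss23 and Klk1 through the control library alone. With at least 1 TPM in both libraries there were 7, of which 2 were higher and 1 lower. Tmprss11b and Tmprss11e, membrane proteases of squamous epithelium, stood at 27.8 and 7.96 TPM in the Trp53 KO library and at 0.0926 and 1.13 TPM in the control library. Prss22 stood at 85.7 and 9.53 TPM and Prss27 at 10.3 and 0.255 TPM. The lower ones were Prss8, or prostasin, at 36.6 and 88.5 TPM, Prss23 at 0.825 and 4.19 TPM, and Klk1 at 0.0593 and 2.38 TPM. St14, the matriptase that activates prostasin, stood at 167 and 125 TPM, under 2-fold.

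Of 14 cysteine proteases and aspartic cathepsins measured, there were 3 higher and 4 lower, and the median was −0.32. With at least 1 TPM in both libraries there were 12, of which 2 were higher and 3 lower. Ctsf stood at 0.227 TPM in the Trp53 KO library and 11.8 TPM in the control library, Ctso at 1.22 and 20.2 TPM, and Ctsb at 145 and 559.9 TPM. Casp14, a caspase of cornifying epidermis, stood at 9.09 and 0.463 TPM. The granule proteases that Serpinb1a, Serpinb6a and Serpinb9 are known to inhibit were nearly absent: Elane, Ctsg and Gzmb were listed at 0 in both libraries, and Prtn3 stood at 1.72 and 0.462 TPM.

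Other families of protease inhibitors also held differences in both directions, with 4 of 15 measured genes higher, 3 lower and a median of −0.32. With at least 1 TPM in both libraries there were 11, of which 1 was higher and 2 lower. That higher gene was Birc5, at 81.7 TPM in the Trp53 KO library and 30.9 TPM in the control library. Stfa3, A2ml1 and Csta1 passed the filter on low values through the Trp53 KO library alone, and Itih2 through the control library alone. Stfa3, a stefin that blocks cysteine cathepsins, stood at 87.0 TPM in the Trp53 KO library and 0.326 TPM in the control library, and A2ml1, a broad inhibitor of the macroglobulin type in squamous epithelium, at 11.1 and 0.487 TPM. Wfdc15b stood at 1.68 and 97.1 TPM, and Itih2, a hyaluronan-binding chain, at 0.0682 and 13.5 TPM. The most abundant inhibitor on this list, Wfdc2, stood at 4594 and 3423 TPM, above the sum of all serpins in both libraries.

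Markers of other cells were read beside these values, and their part in the results was not tested. Over all genes that passed the filter on low values, 8.35% were higher and 15.3% lower. With at least 1 TPM in both libraries the shares were 7.21% and 10.5%. Of 12 measured markers of basal and squamous epithelium 9 were at least 2-fold higher and none were lower, and of the 6 with at least 1 TPM in both libraries 3 were higher. The 13 listed markers summed to 6092 TPM in the Trp53 KO library and 138 TPM in the control library. Sprr1b was near 0 in both libraries, at 0.0681 TPM in the Trp53 KO library and listed at 0 in the control library. Of 7 measured multiciliated cell markers 7 were lower, though only Foxj1 and Rsph1 had at least 1 TPM in both libraries. The 10 listed markers summed to 61.3 TPM in the Trp53 KO library and 218.9 TPM in the control library, with Tppp3, Ccdc153, Dnah5, Dnah9 and Tekt1 listed at 0 in the Trp53 KO library. Of 9 measured secretory cell markers 3 were lower and 0 higher, and the 10 listed summed to 8363 and 22709 TPM. Without Lcn2 the sums were 6021 TPM in the Trp53 KO library and 7049 TPM in the control library. The 10 fibroblast markers, which bear on Serpinh1, Serping1, Serpinf1 and Serpine2, summed to 0.0172 TPM in the Trp53 KO library and 0.113 TPM in the control library. The 10 immune cell markers, which bear on Serpinb1a, Serpinb9 and Serpinb10, summed to 16.5 TPM and 291.5 TPM, with Cd3e, Cd79a and Tyrobp listed at 0 in both libraries and Ptprc, the pan-leukocyte marker, at 0.0110 and 0.0886 TPM. Most of the immune sum lay in Lyz2, listed at 0 in the Trp53 KO library and at 257 TPM in the control library, and in Cd68, at 16.0 and 25.5 TPM. Of 3 measured immune markers 2 were lower, Lyz2 and the macrophage receptor Csf1r, the second at 0.420 and 8.78 TPM. The 8 endothelial markers summed to 7.02 TPM in the Trp53 KO library and 5.15 TPM in the control library, nearly all of it Egfl7, and Tek, Emcn and Erg were listed at 0 in both. Of 4 measured mesothelial markers 1 was higher and 1 lower, and the 6 listed summed to 8417 and 2593 TPM. Without Krt19, which epithelia also express, the sums were 240.9 TPM in the Trp53 KO library and 279.8 TPM in the control library.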

How the data were processed

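RNA was measured in 2 libraries, grouped by the genotype labels into 1 Trp53 KO and 1 control library. Stranded libraries were read as 50 bp pairs, per the labels' protocols. The authors deposited TPM per gene symbol for each library, on build GRCm39 according to the submitters' processing notes. Neither labels nor headers name the aligner, the counting tool, its strand setting or the annotation. The members and lists were chosen with earlier results of these data known.

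TPM keeps no depth by itself. Low values stepped by 0.0565 TPM in the Trp53 KO library and 0.0168 TPM in the control library for 1 read at 1000 bases, when gene length is taken from the longest protein-coding GENCODE M21 transcript. On that basis 30.9% of 10222 genes with over 50 reads in both libraries came within 0.02 of whole reads in both, against 0.16% by chance, and 12 of 38 detected members did. Elsewhere the reads are estimates resting on that length, and whether a read is a single read or a pair was not told apart. A floor of 3 reads stands for a listed 0.

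Genes whose mean TPM was 1 or more were compared on log2(TPM + 1). Named genes are Trp53, the members with at least 1 TPM in either library, and up to 4 genes of each list with the largest differences, or all past 2-fold where they are 5 or fewer. The values of 1 member, which the counts and sums include, are not reported here. Other genes were named after their values were seen. The unit recovery and the calls were checked on simulated reads built with the same transcript lengths, so the lengths themselves were not checked. Changed genes were drawn at 5 TPM or more in the control library, and none had a true change of exactly 2-fold. Alternatives tried were pseudocounts of 0.1 and 5, a mean TPM of 5 or no filter, quantile normalization, median-ratio rescaling, leaving out the 100 highest genes together with mitochondrially encoded ones, and a 4-fold threshold. A minimum of 1 TPM in both libraries was added after the data were examined. Members were matched by symbol to RefSeq (GRCm38.p6) for chromosome and gene order (63 of 63) and for promoter windows (54 of 63). Python 3.11.15, NumPy 2.4.6, pandas 2.3.3 and SciPy 1.17.1 were used.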

Additional observations from a re-analysis of the deposited data

How the results depend on the processing

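No paired analysis was possible because each group has 1 library, and for the same reason no replicate could be left out. The count of 6 members higher and 7 lower became 3 and 3 at 4-fold. The count of lower members became 4 with a pseudocount of 5, 4 with a mean TPM of at least 5, 4 after quantile normalization and 3 with at least 1 TPM in both libraries. Over all genes, 937 higher and 1715 lower became 563 and 930 with a pseudocount of 5 and 267 and 661 at 4-fold. The lower genes numbered 1091 at a mean TPM of 5 or more and 1063 with at least 1 TPM in both libraries, where fewer genes were tested. The median difference of the members, 0.13, was 0.14 and 0.12 with pseudocounts of 0.1 and 5, 0 with no filter, 0.32 both at a mean TPM of 5 or more and with at least 1 TPM in both libraries, 0.31 after rescaling by the median ratio and 0.22 after quantile normalization. It changed sign, to −0.0693, without the mitochondrially encoded genes and the 100 highest genes, which brought the members tested to 18. With 18 members the median lies midway between Serpinb6b, at 0.16, and Serpinc1, at −0.30. Of the 18 members with at least 1 TPM in either library, 17 kept the sign of their difference under 5 alternatives of pseudocount, scaling and composition, and the exception was Serpinc1. Calls of Serpinf1, Serpina9 and Serpinb8 were lost with a pseudocount of 5, at −0.41, −0.40 and −0.75, and after quantile normalization, at −0.66, −0.72 and −0.81. Rescaling by the median ratio also ended the call of Serpinb8, at −0.92. Depth limits the low members: in the Trp53 KO library 3 reads at 1000 bases are worth more TPM than in the control library, so a member listed at 0 only there may be undetected at this depth.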
